A study of Mus musculus with 9 samples.

Results

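The genes described here are 10 members of the insulin-like growth factor system: the ligand gene Igf1, the receptor genes Igf1r and Insr, the adaptor gene Irs1, and 6 genes for IGF-binding proteins, Igfbp2 to Igfbp7. They were chosen by name, as a family, with earlier results of these data known. All 10 were found by symbol among the 47729 genes of the count table. Their mRNA was followed across 9 RNA sequencing libraries. The cells were C2C12, a mouse myoblast line whose cells stop dividing and fuse into myotubes when serum is reduced. A control population had received a non-target guide RNA (WT), and the other populations had been edited with CRISPR-Cas9 to knock out the circadian clock gene Per1 (Per1KO) or Per2 (Per2KO). Each population gave 1 library on day 0, in growth medium with 10% fetal bovine serum, and 1 each on days 3 and 5 after the change to 5% horse serum. Day 0 cells had not been moved to horse serum, but markers of differentiated muscle already differed between the populations on that day, as given below. Nothing in the labels says whether an edited population was a clone or a pool.

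IGF-1 is a secreted growth factor. It binds a receptor tyrosine kinase, IGF1R, and at high concentration the related insulin receptor, and both pass the signal through IRS adaptors to PI3K, AKT and mTOR. In muscle this route promotes the growth of fibers and the differentiation of myoblasts, and it holds FoxO factors, which drive protein breakdown, out of the nucleus. Binding proteins in the medium hold most IGF and can block or prolong its action, and proteases release it from them. Myoblasts make their own IGFs and binding proteins, so the system also works within a culture dish.

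Levels are given as CPM, counts scaled to the depth of a library and corrected for its composition with TMM factors (trimmed mean of M values). Adjusted p-values come from edgeR's quasi-likelihood test with Benjamini-Hochberg adjustment over 13324 tested genes, and a gene was called when its adjusted p was under 0.05. With 1 library per population and day, days served as the replicates of a population and populations as those of a day, and p-values speak only of these cultures. All 10 genes passed the filter of at least 1 CPM in at least 3 libraries. Igfbp3 passed only through the 3 WT libraries, so a difference between WT and the knockouts was built into its selection. The counts are of bulk RNA, in which fewer cells that make a transcript and less transcript per cell cannot be told apart.

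The WT libraries held 5020385 to 6773320 counts and the knockout libraries 41997763 to 48051824, so the smallest knockout total was 6.20 times the largest WT total. Only the WT titles carry a lane suffix, and this and the depth cannot be told apart from genotype. Counts in processed pseudogenes made up 0.589% to 0.763% of the WT libraries and at least 1.35% of each knockout library. Target mRNA did not set the edited populations apart from each other. Per1 stood at 20.8 to 32.4 CPM in Per1KO, 16.4 to 32.9 CPM in Per2KO and 31.0 to 35.5 CPM in WT. Per2 stood at 3.50 to 9.11 CPM in Per2KO, 6.58 to 10.6 CPM in Per1KO and 9.73 to 20.4 CPM in WT, and was called lower than WT only in Per2KO (log2 fold change -1.02, adjusted p = 0.0230). Reads over a whole gene do not show an edit, so these levels do not test the knockouts. Beside the C2C12 line, the labels give whole muscle as tissue. The myoblast markers Myod1, Myf5, Des, Cdh15 and Pax7 were detected in all 9 libraries, the blood cell markers Adgre1 and Cd3e and the adipocyte markers Adipoq and Lep had 0 counts in all 9, and the endothelial marker Pecam1 did not exceed 0.0786 CPM.

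The members lie on 7 chromosomes of the mouse genome (GRCm38, GENCODE M21 positions). Igf1 is at chr10:87858265-87937042 on the plus strand, Igf1r at chr7:67952827-68233668 on the plus strand, Insr at chr8:3122061-3279617 on the minus strand and Irs1 at chr1:82233101-82291416 on the minus strand. Igfbp2 (chr1:72824503-72852474, plus) and Igfbp5 (chr1:72857932-72874884, minus) are neighbours that point at each other across 5457 bases. Igfbp3 (chr11:7206086-7213923, minus) lies 3539 bases from Igfbp1, which had 0 counts in all 9 libraries. Igfbp4 is at chr11:99041244-99054392 (plus), Igfbp6 at chr15:102144362-102149511 (plus) and Igfbp7 at chr5:77349240-77408041 (minus). The sources used here do not say whether strand was used in counting. The antisense gene Igf1os, which overlaps Igf1, had 1 count in 1 library and 0 in the other 8. Igfbp7 overlaps Polr2b on the opposite strand and shares 4.02% of its 31-base words with it. Irs1 shares 30.6% of such words with the overlapping gene Gm9747, which had 0 counts in all 9 libraries. Counts of Irs1 are therefore uncertain where reads match both. Igfbp4 shares 7.79% of its words with transcripts of other genes, so its counts carry a similar limit.

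Short sequence motifs were searched on both strands in the 250 bases before each RefSeq transcription start (RefSeq, GRCm38.p6), where 9 of the 10 genes have a window and Igfbp2 has 2, 10 windows in all. The stretches that hold a motif of the clock or of the myogenic program are shown because the design concerns both, and the 250 bases before Igfbp4 because this gene differed between the populations. Capitals mark the motif, and sequences run 5′ to 3′ on the strand of the gene. The Igf1 stretch lies within an exon of other annotated Igf1 transcripts, so only 30 bases are shown.
Igf1, chr10:87860942-87860971, plus strand: gggaagagaggtCAGCTGcctagagcgatt
Irs1, chr1:82291537-82291566, minus strand: cagaggctccgtCACGTGttttgctcctct
Igfbp2, chr1:72824230-72824479, plus strand: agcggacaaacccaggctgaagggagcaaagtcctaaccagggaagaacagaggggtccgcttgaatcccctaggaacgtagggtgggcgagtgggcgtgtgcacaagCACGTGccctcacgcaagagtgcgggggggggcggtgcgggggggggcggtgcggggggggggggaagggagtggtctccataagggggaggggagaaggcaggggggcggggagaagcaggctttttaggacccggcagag
Igfbp4, chr11:99040994-99041243, plus strand: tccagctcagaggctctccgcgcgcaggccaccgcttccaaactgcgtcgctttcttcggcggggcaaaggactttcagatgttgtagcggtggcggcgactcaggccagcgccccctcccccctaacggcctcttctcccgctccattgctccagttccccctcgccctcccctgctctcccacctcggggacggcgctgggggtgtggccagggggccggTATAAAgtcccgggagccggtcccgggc

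The E-box CACGTG, the letters bound by the clock factors CLOCK and BMAL1, began 142 bases upstream of the start of Igfbp2 and 115 bases upstream of that of Irs1. It was found in 2 of the 10 windows and in 6.02% of all 32851 windows. The myogenic E-box CAGCTG began 157 bases upstream of the Igf1 start, in 1 of 10 windows and in 13.0% of all windows. The TATA box TATAAA began 28 bases upstream of the Igfbp4 start, and its reverse complement began 148 bases upstream of that of Igfbp6, which made 2 of 10 windows against 12.4% of all. The STAT5 letters TTCNNNGAA and the FoxO letters GTAAACA were in none of the 10 windows, and in 7.02% and 3.17% of all windows. No motif overlapped another in these windows, and a match of letters is a description only.

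Igf1, the ligand, rose steeply with differentiation and was far lower in both knockouts on every day. The WT level was 1.55 CPM on day 0, 48.6 CPM on day 3 and 119 CPM on day 5, from 11, 267 and 541 counts. The Per1KO libraries held 0.0405, 5.37 and 6.43 CPM on the same days, from 2, 260 and 268 counts. Those of Per2KO held 0.0197, 4.30 and 9.75 CPM, from 1, 208 and 401 counts. Every knockout library was below the WT library of its day, and the highest knockout level, on day 5 of Per2KO, was below WT on day 3.

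Over the 3 days, Igf1 was lower than in WT, at -3.80 ± 0.35 on the log2 scale (SE, adjusted p = 0.000337) in Per1KO and -3.70 ± 0.34 (adjusted p = 0.000338) in Per2KO. On day 3 the WT level was 9.05 times that of Per1KO (95% counting interval 7.60 to 10.8) and 11.3 times that of Per2KO (9.40 to 13.6). On day 5 it was 18.5 times (15.9 to 21.5) and 12.2 times (10.7 to 13.9). On day 0 the ratios were 38.3 (8.36 to 356) and 78.9 (11.5 to 3397), and their width shows how little 2 counts and 1 count fix them. Intervals cover counting error only and not the spread between cultures, since each population gave 1 library per day. Reads were not tied to single molecules, which the intervals do not allow for.

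Igf1 also rose within each population. The level in WT was 31.4 times that of day 0 on day 3 (interval 17.2 to 63.6) and 76.6 times on day 5 (42.5 to 154). In Per1KO it was 133 times (36.4 to 1102) and 159 times (43.5 to 1317), and in Per2KO 219 times (38.8 to 8679) and 496 times (88.5 to 19645). Across the 3 populations the rise was 5.95 ± 0.43 on the log2 scale by day 3 (adjusted p = 0.000110) and 6.85 ± 0.42 by day 5 (adjusted p = 2.12e-05). The step from day 3 to day 5, a log2 fold change of 0.91 ± 0.27, was not called (adjusted p = 0.174). The test of whether the knockouts' response to differentiation differed from WT's gave 1.91 ± 0.99 for Igf1 (adjusted p = 0.296), and this estimate fell to 0.33 when the knockout libraries were thinned to WT depth.

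**Figure D1:**
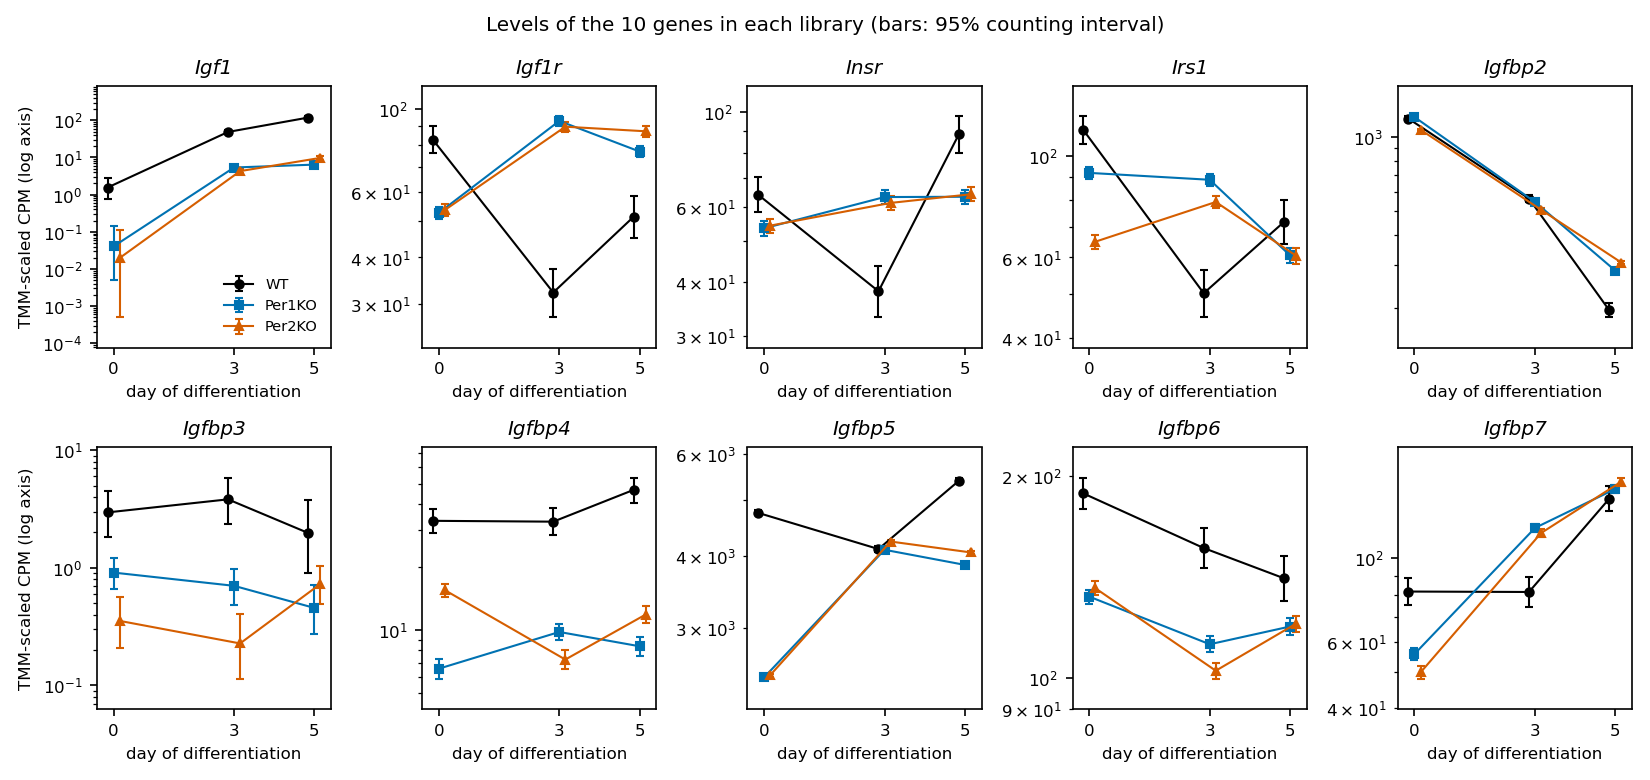
TMM-scaled CPM (log axis) of the 10 genes on days 0, 3 and 5 of differentiation in WT (black circles), Per1KO (blue squares) and Per2KO (orange triangles), 1 library per point with a 95% counting interval. In the Igf1 and Igfbp4 panels the WT points lie above both knockouts on all 3 days, and in the Igf1r panel WT falls from 82.6 to 32.2 CPM by day 3 while both knockouts go up.

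Markers of other states and cells differed beside Igf1. The summed level of 6 markers of differentiated muscle (Myog, Mymk, Myh3, Ckm, Acta1 and Tnnt3) was 625, 16595 and 18286 CPM in WT on days 0, 3 and 5, 33.5, 6882 and 11414 CPM in Per1KO, and 15.7, 6212 and 8837 CPM in Per2KO. Averaged over days, 1 of the 6, Myog, was called lower in each knockout (-2.80, adjusted p = 0.0325, and -3.18, adjusted p = 0.0217). Of all tested genes, 10.1% were called lower in Per1KO and 10.6% in Per2KO. At an unadjusted p under 0.05, 5 of the 6 were lower in each knockout, and their median log2 fold changes were -2.10 and -2.48 over all 6. All 6 were called higher with edgeR in the knockouts' response to differentiation, against 3.50% of all tested genes, with a median of 3.62. These responses started from unlike sums on day 0, at 625 CPM in WT, 33.5 CPM in Per1KO and 15.7 CPM in Per2KO. Markers of fibro-adipogenic progenitors, mesenchymal cells of muscle tissue, were present too. Of the 4 on that list, 3 were called lower in each knockout, against 10.1% and 10.6% of all tested genes. Dpt, a matrix protein gene, stood at 1.55, 78.5 and 142 CPM in WT and did not exceed 3.25 CPM in Per1KO or 6.15 CPM in Per2KO. Pi16 stood at 1.83, 23.9 and 33.2 CPM in WT and did not exceed 1.92 CPM in a knockout library. The summed level of all 4, which Ly6a dominates, was 404 to 529 CPM in WT, 164 to 454 CPM in Per1KO and 149 to 502 CPM in Per2KO. Whether such cells were present was not tested. The part of these marker differences or of the degree of differentiation in the Igf1 result was not tested either. Among the 9578 other tested genes that averaged 10 CPM or more, the 3 with the log2 CPM most like that of Igf1 over the 9 libraries were Sparc (Pearson r 0.994), Alpk3 (0.994) and Slc6a2 (0.992). These r values describe 9 libraries that share days, populations and depth.

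Igf1r, the receptor for IGF-1, went in opposite directions during differentiation. In WT its level was 82.6 CPM on day 0, 32.2 CPM on day 3 and 51.4 CPM on day 5. In Per1KO it was 52.6, 92.6 and 76.7 CPM, and in Per2KO 53.6, 89.4 and 86.9 CPM. WT was thus the highest library on day 0 and the lowest on days 3 and 5. The ratio of day 3 to day 0 was 0.390 in WT (95% counting interval 0.328 to 0.462), 1.76 in Per1KO (1.68 to 1.85) and 1.67 in Per2KO (1.59 to 1.75).

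The response to differentiation in the knockouts exceeded that in WT by 1.70 ± 0.30 on the log2 scale for Igf1r (adjusted p = 0.0291). With edgeR it was the 1 call among the 10 members in that comparison, where 3.50% of all tested genes were called higher and 1.45% lower. DESeq2 called 3 members higher (Igf1r, Igfbp5 and Igfbp7), and edgeR called Igf1r and Igfbp7 with no filter on low counts and with the knockout libraries thinned to WT depth. The call was lost without Per2KO (1.70, adjusted p = 0.0546), and the estimate was 1.29 without day 3 and 2.14 without day 5. Averaged over days, no difference from WT was called: Per1KO gave 0.38 ± 0.39 on the log2 scale (adjusted p = 0.526) and Per2KO 0.43 ± 0.39 (adjusted p = 0.470). Without day 0, both became calls, at 1.02 (adjusted p = 0.0370) and 1.08 (adjusted p = 0.0294). Averaged over populations, day effects on Igf1r were 0.10 by day 3 and 0.13 by day 5, with no call. In the 6 knockout libraries alone, Igf1r rose by 0.77 by day 3 (adjusted p = 0.000595) and by 0.62 by day 5 (adjusted p = 0.00112).

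Insr, the insulin receptor gene, gave no call in any comparison of all 9 libraries with edgeR. Levels in WT were 64.0, 38.1 and 88.5 CPM on days 0, 3 and 5. Those of Per1KO were 53.4, 63.2 and 63.3 CPM, and those of Per2KO 54.2, 61.2 and 64.1 CPM. The WT library was the lowest on day 3 and the highest on days 0 and 5, and the knockouts' levels were within each other's counting intervals on every day. The log2 fold change from WT was -0.04 ± 0.23 in Per1KO (adjusted p = 0.913) and -0.05 ± 0.23 in Per2KO (adjusted p = 0.907). The difference in response was 0.32 ± 0.41 (adjusted p = 0.688), and became a call of 0.96 without day 5 (adjusted p = 0.0142).

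Receptor proportions were compared per kilobase of the longest annotated transcript. The level of Igf1r was 1.06 times that of Insr in WT on day 0, 0.694 times on day 3 and 0.476 times on day 5. In Per1KO the ratio was 0.808, 1.20 and 0.995, and in Per2KO 0.811, 1.20 and 1.11. Insr therefore exceeded Igf1r in WT on days 3 and 5, where the knockouts had the ratio near or above 1. The ratio of Igf1 to Igf1r per kilobase was 0.0304, 2.44 and 3.74 in WT on days 0, 3 and 5. It was 0.00125, 0.0939 and 0.135 in Per1KO, and 0.000594, 0.0778 and 0.181 in Per2KO. Igf1 transcript thus exceeded Igf1r transcript only in the WT libraries of days 3 and 5. The other ligand transcript, Igf2, is not part of this ratio. These ratios rest on 1 library each and carry no test.

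Irs1, the adaptor that links both receptors to PI3K, was not called by edgeR in any comparison of all 9 libraries. Its levels in WT were 114, 50.1 and 71.8 CPM on days 0, 3 and 5. Per1KO had 91.9, 88.8 and 60.6 CPM, and Per2KO had 65.0, 79.4 and 60.5 CPM. As with Igf1r and Insr, the WT library had its lowest level on day 3, below both knockouts. The difference in response was 0.78 ± 0.37 (adjusted p = 0.259), and 1.31 without day 5 (adjusted p = 0.00226). The fall by day 5 across populations was -0.48 ± 0.26 and was not called (adjusted p = 0.162). In the 6 knockout libraries alone it was -0.36, which was a call (adjusted p = 0.0435).

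**Figure D2:**
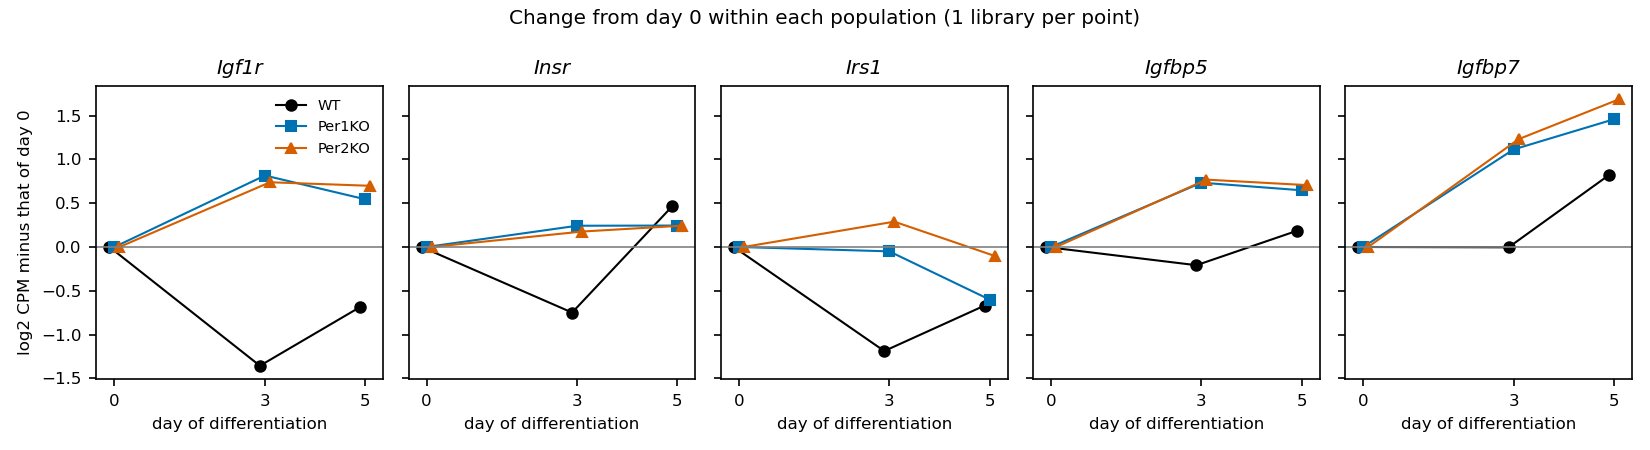
Change of log2 CPM from day 0 within each population (y axis) for Igf1r, Insr, Irs1, Igfbp5 and Igfbp7 on days 0, 3 and 5 (x axis), with 1 library per point. The WT line (black circles) is below both knockout lines (blue squares, orange triangles) on day 3 in all 5 panels; with edgeR the difference in response was called for Igf1r, and with DESeq2 also for Igfbp5 and Igfbp7.

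Of the 10 genes, 4 were lower in Per1KO than in WT and 0 higher, against 10.1% and 9.26% of all genes tested. In Per2KO the same 4 were lower and 0 higher, against 10.6% and 9.31% of all genes. The 4 were Igf1, Igfbp3, Igfbp4 and Igfbp6. Igfbp3 reached the 1 CPM of the expression filter in the 3 WT libraries alone. With all its knockout levels under 1 CPM, it could be tested only because WT was higher, so it lends the count no weight. Without it, 3 of 9 members were lower in each knockout, among them 2 of 5 binding protein genes, and the median log2 fold changes were -0.04 and -0.17. Both comparisons share the WT libraries, so the second is no independent repeat of the first. The family was also chosen with earlier results of these data known, which limits what its counts beside those shares can show. With Igfbp3 included, the median log2 fold change of the 10 was -0.23 in Per1KO and -0.30 in Per2KO, beside -0.02 and -0.01 over all tested genes. At an unadjusted p under 0.05, 0 of the 10 were higher in either knockout, and DESeq2 called 0 higher.

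Igfbp4, whose product binds IGFs in the medium and is cut by the protease PAPP-A, was lower in both knockouts. The WT libraries had 33.3, 33.0 and 46.8 CPM on days 0, 3 and 5. Levels were 6.54, 9.80 and 8.37 CPM in Per1KO and 15.5, 7.23 and 11.9 CPM in Per2KO. All 6 knockout libraries were below all 3 WT libraries. The log2 fold change of Per1KO from WT was -2.16 ± 0.30 (adjusted p = 0.00242) and that of Per2KO -1.71 ± 0.30 (adjusted p = 0.00659). The WT level was 5.09, 3.36 and 5.59 times that of Per1KO on days 0, 3 and 5, and 2.14, 4.56 and 3.94 times that of Per2KO. Both calls were lost without day 5, where the estimates were -2.01 (adjusted p = 0.0568) and -1.58 (adjusted p = 0.0987). No day effect was called for Igfbp4.

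Igfbp3, which carries most IGF in blood, was scarce in these cells. In WT it stood at 2.96, 3.83 and 1.98 CPM, from 21, 21 and 9 counts. Per1KO had levels of 0.911, 0.703 and 0.456 CPM, from 45, 34 and 19 counts, and Per2KO of 0.354, 0.227 and 0.730 CPM, from 18, 11 and 30 counts. All 6 knockout libraries were below all 3 WT libraries, which the expression filter had also selected for. The log2 fold change of Per1KO from WT was -2.09 ± 0.51 (adjusted p = 0.0267) and that of Per2KO -2.78 ± 0.54 (adjusted p = 0.0107). The gene failed the filter when a day was left out, so these values have no such check. The 3 genes with a log2 CPM most like that of Igfbp3 were Tuba1b (r = 0.966), Gps1 (0.954) and Poll (0.953).

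Igfbp6, whose product prefers IGF-2 over IGF-1, differed by a small amount. Levels of 188, 156 and 141 CPM were found in WT on days 0, 3 and 5. In Per1KO it stood at 132, 112 and 119 CPM, and in Per2KO at 136, 103 and 121 CPM. All 6 knockout libraries were below all 3 WT libraries. The log2 fold change of Per1KO from WT was -0.41 ± 0.11 (adjusted p = 0.0419) and that of Per2KO -0.43 ± 0.11 (adjusted p = 0.0338). Both calls were lost without any 1 of the days (adjusted p from 0.0643 to 0.196), with no filter on low counts (0.152 and 0.120) and with the knockout libraries thinned to WT depth (0.0516 and 0.0544).

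**Figure D3:**
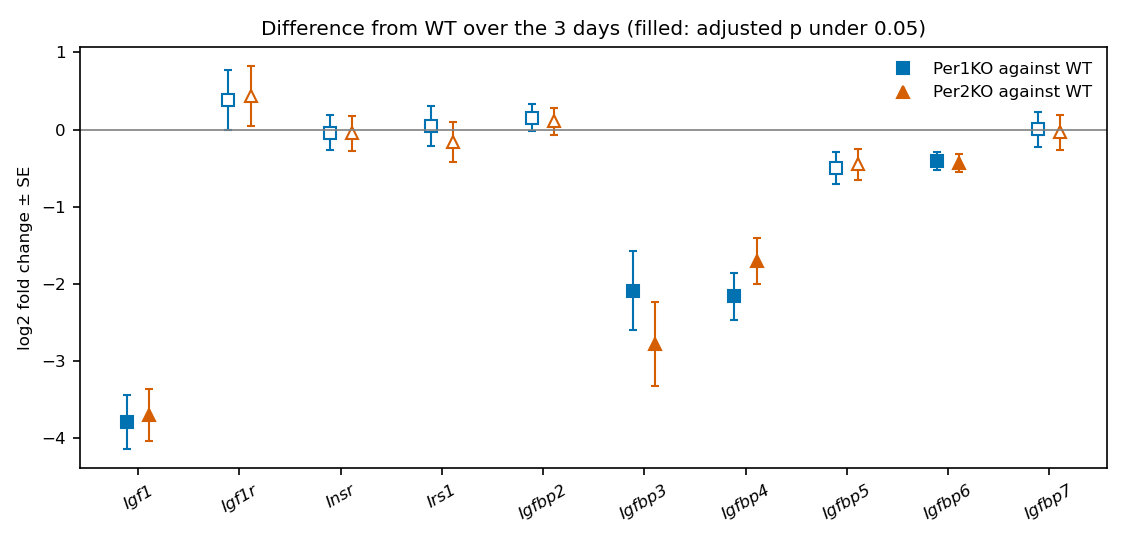
Log2 fold change from WT over the 3 days (y axis, bars ± SE) of each of the 10 genes in Per1KO (blue squares) and Per2KO (orange triangles), with filled symbols where the adjusted p was under 0.05. Filled symbols stand at Igf1, Igfbp3, Igfbp4 and Igfbp6 in both knockouts, with Igf1 farthest below 0 at -3.80 and -3.70.

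Igfbp2, the leading binding protein transcript per kilobase on day 0, fell with differentiation in each population. The 3 WT libraries gave 1192, 561 and 196 CPM on days 0, 3 and 5. Those of Per1KO gave 1210.0, 544 and 285 CPM, and those of Per2KO 1074, 505 and 307 CPM. WT lay between the knockouts on day 0, above both on day 3 and below both on day 5. Across populations the log2 fold change was -1.11 ± 0.18 by day 3 (adjusted p = 0.00275) and -2.15 ± 0.18 by day 5 (adjusted p = 8.08e-05). From day 3 to day 5 it was -1.04 ± 0.18 (adjusted p = 0.0313), a call that was lost without Per1KO (adjusted p = 0.425) or without Per2KO (0.171). The call for day 3 was lost without Per1KO (adjusted p = 0.0591). The log2 fold change from WT was 0.15 ± 0.18 in Per1KO (adjusted p = 0.571) and 0.11 ± 0.18 in Per2KO (adjusted p = 0.704).

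Igfbp5, a binding protein long known to be induced in differentiating myoblasts, had the highest CPM of the 10 genes in all 9 libraries. WT had 4747, 4109 and 5392 CPM on days 0, 3 and 5. Per1KO had 2464, 4097 and 3858 CPM, and Per2KO had 2485, 4234 and 4054 CPM. On day 0 the level in Per1KO was 0.519 times that of WT (95% counting interval 0.513 to 0.525) and that in Per2KO 0.523 times (0.517 to 0.530), while on day 3 the ratios were 0.997 and 1.03. With edgeR no comparison of all 9 libraries called Igfbp5: the log2 fold change from WT was -0.50 ± 0.21 in Per1KO (adjusted p = 0.129) and -0.45 ± 0.21 in Per2KO (adjusted p = 0.161), and that by day 5 was 0.50 ± 0.20 (adjusted p = 0.0810). The difference in response was 0.72 (adjusted p = 0.133). DESeq2 called both the rise by day 5 (0.49, adjusted p = 0.0383) and the difference in response (0.70, adjusted p = 0.0405). The knockouts alone gave a rise of 0.75 by day 3 (adjusted p = 0.000555) and 0.67 by day 5 (adjusted p = 0.000620). The 3 genes most like Igfbp5 over the 9 libraries were Bicc1 (r = 0.981), B4galt5 (0.979) and Ncstn (0.975).

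Igfbp7, a low-affinity IGF binder found in the matrix, rose with differentiation. In WT it stood at 81.6, 81.4 and 144 CPM on days 0, 3 and 5. The same days gave 55.7, 121 and 153 CPM in Per1KO and 49.7, 117 and 160.0 CPM in Per2KO. WT was the highest library on day 0 and the lowest on days 3 and 5. Across populations the log2 fold change was 0.79 ± 0.23 by day 3 (adjusted p = 0.0307) and 1.30 ± 0.23 by day 5 (adjusted p = 0.00261). The call for day 3 was lost without Per1KO (0.61, adjusted p = 0.289) or Per2KO (0.56, adjusted p = 0.254), and WT alone had a day 3 to day 0 ratio of 0.997 (95% counting interval 0.880 to 1.13). The difference in response between the knockouts and WT was 0.96 ± 0.21 (adjusted p = 0.0509), and it was called by DESeq2 (0.94, adjusted p = 0.00506). Averaged over days, Igfbp7 differed from WT by 0.01 ± 0.23 in Per1KO and -0.04 ± 0.23 in Per2KO, with no call.

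Between days, 2 of the 10 genes rose (Igf1 and Igfbp7) and 1 fell (Igfbp2), by day 3 as by day 5. By day 3, 18.1% of all tested genes rose and 16.9% fell, and by day 5, 23.2% rose and 22.9% fell. From day 3 to day 5, 0 of the 10 rose and Igfbp2 fell, against 0.698% and 1.09% of all genes. At an unadjusted p under 0.05, 1 of the 10 rose in that step, and DESeq2 called 0 higher.

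The mix of binding protein transcripts changed from Igfbp2 to Igfbp5. Per kilobase, Igfbp2 led the 10 genes on day 0 and Igfbp5 on days 3 and 5, in each of the 3 populations. Igfbp2 made up 46.8%, 32.2% and 11.5% of the summed level of the 6 binding protein genes in WT on days 0, 3 and 5. The shares were 61.6%, 31.9% and 19.9% in Per1KO, and 58.6%, 30.1% and 20.4% in Per2KO. Igfbp5 made up 40.5%, 51.4% and 68.7% in WT, 27.3%, 52.4% and 58.5% in Per1KO, and 29.5%, 54.9% and 58.4% in Per2KO. On day 0 the ratio of Igfbp5 to Igfbp2 per kilobase was 0.867 in WT, 0.443 in Per1KO and 0.503 in Per2KO. Igf1 came last of the 10 on day 0 in each population, and on day 5 it came between Igfbp7 and Igfbp4 in WT but above Igfbp3 alone in both knockouts. Each of these levels is 1 library, so neighbours in the order were not tested.

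**Figure D4:**
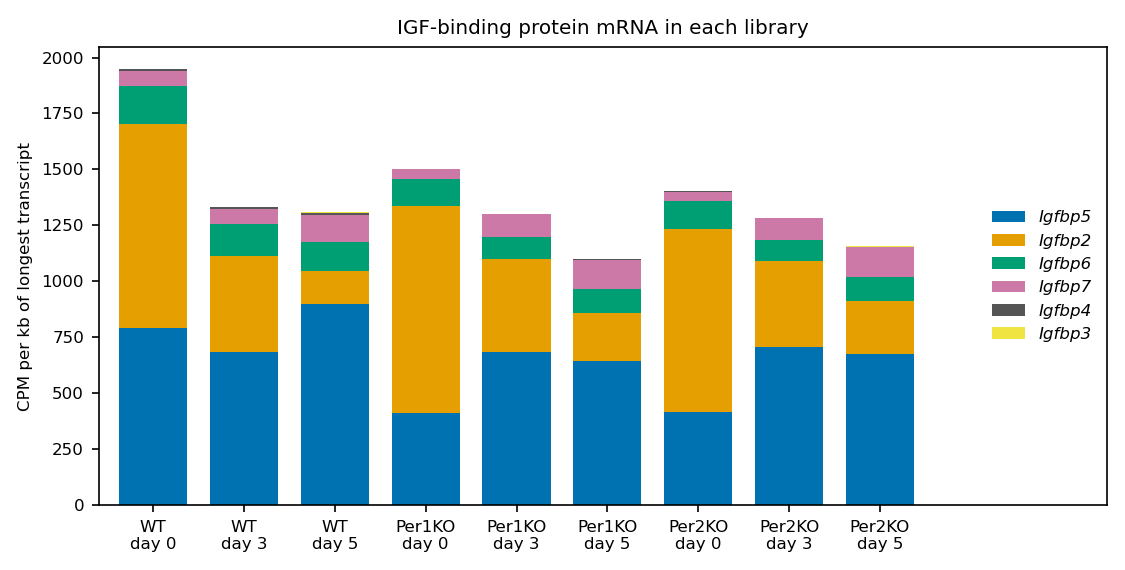
Stacked CPM per kilobase of the longest transcript (y axis) of the 6 binding protein genes in each of the 9 libraries (x axis), 1 bar per library. The Igfbp2 part (orange) shrinks from day 0 to day 5 in each population, from 46.8% to 11.5% in WT, and the Igfbp5 part (blue) leads on days 3 and 5.

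Between the edited populations no member was called. With edgeR, 0 of the 10 differed between Per1KO and Per2KO, 0 also at an unadjusted p under 0.05 and 0 with DESeq2. Over all genes 0% were higher and 0% lower in Per1KO, where 88 of 13324 genes had an unadjusted p under 0.05 and DESeq2 called 1. That is a smaller share than the 0.05 a test gives where nothing differs. Differences between days in a genotype effect, those of WT included, count as spread in this fit. The lack of calls therefore does not show that the edited populations were alike. The log2 difference of Per1KO from Per2KO ranged from -0.45 ± 0.29 for Igfbp4 to 0.69 ± 0.49 for Igfbp3. It was -0.09 ± 0.32 for Igf1.

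Other ligands, receptors and RNA binders of the system were followed as a list of 15 genes, of which 7 were tested. In each knockout 1 was higher and 1 lower than in WT, against 9.26% and 10.1% of all tested genes in Per1KO, then 9.31% and 10.6% in Per2KO. The median log2 fold change of the 7 was -0.09 in Per1KO and 0.12 in Per2KO, beside -0.02 and -0.01 over all tested genes. Igf2, the second IGF and the main one of cultured myoblasts, went with Igf1: its level was 14.8, 435 and 386 CPM in WT on days 0, 3 and 5, 0.587, 63.8 and 67.9 CPM in Per1KO, and 0.275, 58.0 and 62.6 CPM in Per2KO. Per1KO differed from WT by -3.21 ± 0.49 on the log2 scale (adjusted p = 0.00429) and Per2KO by -3.43 ± 0.50 (adjusted p = 0.00318), so both IGF ligand transcripts were lower in both knockouts. Unlike that of Igf1, the difference in response of Igf2 was called (2.40 ± 0.33, adjusted p = 0.0131), although whether the estimates for these genes differ was not tested. Igf2bp3, for an mRNA-binding protein named for its Igf2 target, was higher in Per1KO by 1.41 (adjusted p = 0.00451) and in Per2KO by 1.43 (adjusted p = 0.00404), at 2.81 to 4.98 CPM in the knockouts and 1.10 to 1.64 CPM in WT. By day 3, 4 rose and 0 fell: Igf2, Ins2, Igf2r, the receptor that takes IGF-2 up for breakdown (1.19, adjusted p = 0.00343), and the noncoding RNA H19 (3.58, adjusted p = 0.00137). By day 5, 4 rose and Igf2bp2 fell (-0.84, adjusted p = 0.00479). Over all tested genes 18.1% rose and 16.9% fell by day 3, and 23.2% and 22.9% by day 5.

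Of 9 genes for IGFBP proteases and their inhibitors, 8 were tested. In each knockout 1 was higher and 1 lower, beside 9.26% and 10.1% of all tested genes in Per1KO and 9.31% and 10.6% in Per2KO, with medians of -0.56 and -0.49. Pappa, for the protease that cuts IGFBP-4, was higher in both, opposite to Igfbp4 itself: it stood at 4.23, 1.82 and 2.85 CPM in WT, 10.9, 5.62 and 4.77 CPM in Per1KO and 14.4, 6.12 and 6.30 CPM in Per2KO. Its log2 fold change was 1.26 ± 0.22 (adjusted p = 0.00606) and 1.57 ± 0.21 (adjusted p = 0.00210). Adam12, for a protease that cuts IGFBP-3 and IGFBP-5, was lower, at a log2 fold change of -2.76 ± 0.50 in Per1KO (adjusted p = 0.00865) and -3.27 ± 0.50 in Per2KO (adjusted p = 0.00395). It rose in WT from 4.65 to 56.9 CPM between days 0 and 5 and did not exceed 4.84 CPM in a knockout. With differentiation 4 of the 8 rose and 2 fell by day 3, and the same numbers by day 5 (18.1% and 16.9%, then 23.2% and 22.9%, of all tested genes). Pappa2, for a protease of IGFBP-3 and IGFBP-5, rose by 2.84 by day 3 (adjusted p = 0.00266). Stc2, for an inhibitor of both PAPP-A proteases, fell by 1.85 (adjusted p = 0.0109) and Pappa fell by 1.10 (adjusted p = 0.00348) on the log2 scale. For Stc1, another such inhibitor, the log2 change from day 0 was lower in the knockouts than in WT (-2.75 ± 0.56, adjusted p = 0.0401).

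Downstream of the receptors, 32 genes of the adaptors and the PI3K, AKT and mTOR relay were tested. In Per1KO 2 of the 32 were higher and 1 lower, when 9.26% and 10.1% of all tested genes were. In Per2KO 1 was higher and 4 lower, when 9.31% and 10.6% of all genes were. Each count lay near or below the share of all genes, and the medians were -0.13 and -0.15. Pik3cb, a catalytic subunit of PI3K, was higher in both, by 0.79 (adjusted p = 0.00614) and 0.66 (adjusted p = 0.0129), and Rps6kb2, an S6 kinase gene, lower in both, with -0.51 (adjusted p = 0.0341) and -0.55 (adjusted p = 0.0257). Gsk3a was higher in Per1KO by 0.38 (adjusted p = 0.0435). Inppl1, for the lipid phosphatase SHIP2, was lower in Per2KO, with -0.58 (adjusted p = 0.0143). Grb10, an imprinted adaptor gene that dampens insulin and IGF-1 receptors, had 0 counts on day 0 in all 3 populations, below floors of 0.443 CPM in WT and 0.0649 and 0.0636 CPM in Per1KO and Per2KO. It reached 2.73 and 3.29 CPM in WT on days 3 and 5, 0.331 and 1.27 CPM in Per1KO and 0.537 and 0.535 CPM in Per2KO. Grb10 was called lower in Per2KO (adjusted p = 0.0430). No Per2KO library reached the 1 CPM of the expression filter, so this difference was partly built into its selection and lends the count of 4 lower little weight. By day 3, 9 of the 32 rose and 2 fell, and by day 5, 15 rose and 1 fell, against 18.1% and 16.9%, then 23.2% and 22.9%, of all tested genes. The medians were 0.27 and 0.40, beside -0.01 over all tested genes on both days. Foxo1 rose by 1.03 (adjusted p = 0.00185) and then 1.49 (adjusted p = 0.000183), and Pik3r3, a regulatory subunit of PI3K, by 1.11 by day 3 (adjusted p = 0.00691). Grb14, a relative of Grb10, fell in both steps from day 0 (-1.67, adjusted p = 0.00593 and -1.35, adjusted p = 0.00867). Eif4ebp1, a translation repressor that mTOR switches off, fell by 1.29 by day 3 (adjusted p = 0.0327). Its log2 change from day 0 was lower in the knockouts than in WT, by -1.63 ± 0.34 (adjusted p = 0.0435), in the direction of that fall. The change of Pik3r2 was higher in the knockouts than in WT (0.83 ± 0.15, adjusted p = 0.0299).

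Genes that FoxO factors induce in wasting muscle made a list of 13, all tested. In Per1KO 1 was higher and 1 lower, and in Per2KO 0 were higher with edgeR (2 at an unadjusted p under 0.05, and 1 with DESeq2) and 1 was lower. Of all genes tested, 9.26% rose above WT and 10.1% fell below it in Per1KO (9.31% and 10.6% in Per2KO), near these counts. The medians were -0.23 and -0.18. Trim63, for the ubiquitin ligase MuRF1, was lower, at a log2 fold change of -0.87 (adjusted p = 0.0425) in Per1KO and -1.02 (adjusted p = 0.0223) in Per2KO, and Pdk4, for a kinase that shuts pyruvate oxidation, was higher in Per1KO by 1.51 (adjusted p = 0.0295). With differentiation 5 of the 13 rose and 1 fell by day 3, and again by day 5 (18.1% and 16.9%, then 23.2% and 22.9%, of all tested genes). Trim63 rose by 6.27 by day 3 (adjusted p = 3.59e-05), and Fbxo32, for the ubiquitin ligase atrogin-1, by 1.73 (adjusted p = 0.000169). Ctsl, a lysosomal protease gene, fell by 0.56 (adjusted p = 0.0199). Sesn1, for a stress protein that restrains mTOR, had a higher log2 change from day 0 in the knockouts than in WT (1.42 ± 0.20, adjusted p = 0.0131).

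The growth hormone and STAT5 axis, which controls Igf1 in liver, was a list of 9 genes, of which 8 were tested, with medians of -0.28 in Per1KO and -0.43 in Per2KO. In Per1KO 1 was higher and 1 lower (9.26% and 10.1% of all tested genes), and in Per2KO 1 was lower (10.6%). Socs2, a STAT5 target that damps growth hormone signalling, was lower, at a log2 fold change of -0.75 (adjusted p = 0.0193) in Per1KO and -0.78 (adjusted p = 0.0151) in Per2KO. Jak2, the kinase of the growth hormone receptor, was higher in Per1KO by 0.63 (adjusted p = 0.0367). By day 3, 4 rose and 2 fell, and by day 5, 3 rose and 2 fell, with the shares of all tested genes again 18.1% and 16.9%, then 23.2% and 22.9%. Ghr, the growth hormone receptor gene, rose by 1.27 (adjusted p = 0.0229) and 1.65 (adjusted p = 0.00532), while the STAT5 target Cish fell by 1.75 (adjusted p = 0.00594) and 2.28 (adjusted p = 0.00174) on the log2 scale. Ghr stood at 89.7, 92.7 and 193 CPM in WT on days 0, 3 and 5, 47.8, 188 and 208 CPM in Per1KO and 63.5, 208 and 233 CPM in Per2KO.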

How the data were processed

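RNA sequencing counts of 9 C2C12 libraries were used, 1 per population and day. The values are read counts per Ensembl gene, taken as the authors deposited them. Per the labels' protocols, poly(A) RNA went into TruSeq libraries and was sequenced as single reads. Per the submitters' processing notes, CASAVA 1.8, HISAT2 2.1.0 and build mm10 were used; the counting program, its annotation and its use of strand are not given in the sources used here. Symbols matched 47224 of 47729 identifiers, and 0 rows named no gene.

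Genes that reached 1 CPM in 3 or more libraries were tested with edgeR 4.0.16 (limma 3.58.1, R 4.3.3): TMM scaling, robust quasi-likelihood fits and Benjamini-Hochberg adjustment at 0.05. Genotype and day effects came from an additive model of all 9 libraries (4 residual degrees of freedom). The response of the knockouts against that of WT came from 1 term for knockout or WT by day 0 or later days (3 residual degrees of freedom). A positive value means a log2 change from day 0 that was higher in the knockouts than in WT, whether the gene rose or fell. SE is the log2 fold change divided by the square root of F. CPM intervals are exact Clopper-Pearson 95% intervals, and a count of 0 allows up to 3 counts (0.443 to 0.598 CPM in WT, 0.0624 to 0.0714 CPM in the knockouts). The fits were tested on simulated data.

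All 10 members were named. From each list, up to 3 genes with the largest rise and fall among those called were eligible, and for Igf1, Igfbp3 and Igfbp5 the 3 most correlated genes. The members and lists were chosen with earlier results of these data known. Alternatives were RLE scaling, TMM from protein-coding genes, DESeq2 1.42.0, no filter (at least 1 count), thinning of the knockout libraries, fits of the 6 libraries compared, and leaving out each day or population. Pairs of libraries carry no p-value.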

Additional observations from a re-analysis of the deposited data

Results flagged for a closer look

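The change of Igf1r from day 0 to days 3 and 5 differed between the knockouts and WT by 1.70 on the log2 scale, by a test of that difference (adjusted p = 0.0291). Its level went from 52.6 to 92.6 and 76.7 CPM in Per1KO and from 53.6 to 89.4 and 86.9 CPM in Per2KO, and from 82.6 to 32.2 and 51.4 CPM in WT. The day 3 and day 5 libraries of WT hold 5771983 and 5020385 counts, and with the knockout libraries thinned to WT depth the difference was 1.64 (adjusted p = 0.0109).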

How the results depend on the processing

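Of 138 alternative values of the called effects of the 10 genes, 116 kept direction and call, 22 kept direction without a call and 0 reversed. Of 474 for effects without a call, 20 gained one. The alternatives counted are RLE scaling, TMM from protein-coding genes, DESeq2, no filter, thinning, fits of only the 6 libraries compared and leaving out a day or population.

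With DESeq2, 728 genes were called between days 5 and 3 (238 in the analysis as reported). It called 1464 for the difference in response (659) and 1 between Per1KO and Per2KO (0). Under it, 2 members fell by day 3 (1) and 3 members were called higher for the difference in response (1). With no filter, 370 genes were called between days 5 and 3 and 1 between the knockouts. For the difference in response, 2 members were called higher with no filter, and also 2 with thinning. With only the 6 libraries compared, 1362 genes were called for Per1KO (2575), 1229 for Per2KO (2652), 2977 for day 3 against day 0 (4664) with 1 member higher (2), and 573 for day 5 against day 3. Leaving out a day gave 685 to 2639 genes for Per1KO and 753 to 2968 for Per2KO, with 0 to 1 members higher and 1 to 2 lower than WT in each (0 and 4 as reported), and Igfbp3 was then not among the genes tested. Leaving out a population gave 1091 to 7479 genes for day 3 against day 0, with 1 to 4 members higher and 0 to 2 lower. It gave 2259 to 8341 genes for day 5 against day 0 (6149), with 2 to 5 members higher and 1 to 2 lower. For day 5 against day 3 it gave 0 to 1355 genes, with 0 to 1 members higher and 0 to 1 lower. For the difference in response, leaving out a knockout or a day gave 240 to 1893 genes and 0 to 5 members higher. The highest counts by day came without WT, which leaves the 6 deeply sequenced libraries. Leaving libraries out lowers the number fitted, and a filter lowers the number of genes tested; otherwise the cause was not tested. The labels carry no replicate numbers to pair libraries by; populations were compared within days through the day term of the additive model. At WT depth 3 counts are 0.443 to 0.598 CPM, which limits Igfbp3 and the day 0 level of Igf1.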
